A study of Mus musculus with 4 samples.

Results

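*Gcg*, the gene of preproglucagon, and 5 receptor genes of the same peptide family, *Glp1r*, *Glp2r*, *Gipr*, *Gcgr* and *Sctr*, were followed through all neuronal clusters and cell types of mouse hindbrain nuclei. The 6 genes were chosen by name from the 32285 genes of the count matrices, by family membership and without a threshold on a measured value. Their levels were read in the 39461 nuclei that the authors kept, of which 12539 were neurons in 134 of 184 clusters. *Gcg* was concentrated in 14 nuclei of a single cluster, *Sctr* in the Gfral/Sctr neurons and in cells that line the ventricle, *Gipr* in mural cells and oligodendrocytes, *Glp1r* thinly in 76 neuronal clusters and *Glp2r* in neurons, oligodendrocytes and several other types. *Gcgr* was close to absent at this depth.

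The tissue was the dissected part of the hindbrain that holds the area postrema and the nucleus of the solitary tract, from adult mice of both sexes aged 12 to 20 weeks. AgRP-Gq;POMC-Gi mice carried AgRP-IRES-Cre+/-, POMC-Dre+/-, hM3DGq fl/- and hM4DGi fl/-, so that the drug CNO excites AgRP neurons and silences POMC neurons, while the controls, labelled WT, had both receptor alleles but neither recombinase. Both receptor alleles lie behind stop cassettes that the recombinases remove, so that they are expressed where the AgRP and POMC drivers are active. Whether any hindbrain nuclei measured here carry them was not tested. Mice of both groups received CNO at 3 mg per kg 1 h before collection, with no food present. There were 2 libraries per group, nuclei within a condition came from pooled samples, and the sources do not say which mice went into which library, so that every p-value measures only the spread between libraries.

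The 4 libraries held 9723 to 10051 kept nuclei each. Of these, 25.4% and 27.2% were neurons in controls, against 38.0% and 36.5% in AgRP-Gq;POMC-Gi, with median depths of 9624, 8728, 8252 and 8514 unique molecular identifiers (UMIs, the counted transcripts). The deposited labels of the cell types were checked with 27 marker genes, of which 23 were highest in the labelled type. Barcodes shared by 2 or more libraries numbered 168. Levels are given as CPM, the UMIs of a gene per 1000000 UMIs of the same nuclei, as the mean ± SD over 4 libraries where no group is given. In such sums, fewer cells of a kind and less RNA per cell cannot be told apart.

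Preproglucagon is cut by prohormone convertases into different peptides in different tissues. In the intestine and in neurons of the caudal hindbrain the convertase of *Pcsk1* releases the glucagon-like peptides, whereas in pancreatic alpha cells the convertase of *Pcsk2* releases glucagon. The receptors belong to class B of the G protein-coupled receptors and raise cAMP through Gs. *Glp1r*, *Glp2r* and *Gcgr* bind the products of preproglucagon, *Gipr* binds the incretin GIP of the upper intestine, and *Sctr* binds secretin. Hindbrain preproglucagon neurons are the main source of these peptides within the brain, and the area postrema, which lacks a tight blood-brain barrier, is a known site of *Glp1r*.

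*Gcg* (GRCm38, chromosome 2, 62474530 to 62483650, minus strand, overlapped by no other annotated gene) gave 195 UMIs in all nuclei and 137 in 50 neurons. Of the neuronal UMIs, 73.0% lay in cluster 109, named Gcg/Reln by the authors, which is 0.710% of the neurons. In that cluster the UMIs were 5, 15, 21 and 59 in control replicates 1 and 2 and AgRP-Gq;POMC-Gi replicates 1 and 2, in 1 of 23, 3 of 24, 2 of 14 and 8 of 28 nuclei. The distribution over nuclei was uneven. All 14 nuclei with a *Gcg* UMI had at least 2 and up to 18, whereas the other 75 had none. Over the 4 libraries 15.7% of the nuclei of cluster 109 had a *Gcg* UMI (exact Clopper-Pearson 95% interval 8.88% to 25.0%), and 12.4% after each nucleus was thinned to 2000 UMIs.

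Outside cluster 109 *Gcg* was close to background. Of 12450 other neurons, 36 had a *Gcg* UMI (0.289%), and only 1 of these had more than 1 UMI. Oligodendrocytes, which do not make preproglucagon, had a *Gcg* UMI in 0.190% of 16816 nuclei at a median depth of 2460 UMIs, and astrocytes in 0.206% of 4378 nuclei at 3376, against a median of 8704 in neurons. Thinned to 800 UMIs, all neurons had a share of 0.0957%, oligodendrocytes 0.0833% and astrocytes 0.0685%. No other neuronal cluster had 3 nuclei with a *Gcg* UMI, so that cluster 109 alone entered the order of levels. Means of 16.5 ± 33.0 CPM in the Ms4a4b immune cells and 3.19 ± 4.58 CPM in tanycyte-like cells rested on 2 and 3 UMIs. No 2 neighbors in the order of cell types were separated for *Gcg*.

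The 14 *Gcg* nuclei of cluster 109 differed in other transcripts from the 75 nuclei they were grouped with. These genes were picked after their values were seen, from the lists of peptide processing, cAMP and vagal complex genes and from the cluster's own name, and their values are a description. By library the 14 nuclei numbered 1, 3, 2 and 8 and the 75 numbered 22, 21, 12 and 20. The split thus goes partly with the group, and the parts of group and split were not told apart. *Reln*, the other gene in the name of the cluster, had a UMI in 1 of the 14 nuclei and in 49 of the 75. *Lepr*, the leptin receptor, had one in 10 of 14 and 13 of 75 nuclei, with 213 and 15.5 CPM in the pooled nuclei of each kind. *Gad2*, an enzyme of GABA synthesis, had one in 11 of 14 and 15 of 75, but the GABA loading transporter *Slc32a1* in 0 of 14 and 1 of 75, and the glutamate transporter *Slc17a6* in 12 of 14 and 49 of 75.

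The convertases also went different ways in these nuclei. *Pcsk1* had a UMI in 11 of the 14 *Gcg* nuclei and 26 of the 75 others, at 269 and 50.8 CPM, whereas *Pcsk2* had one in 5 of 14 and 64 of 75, at 44.8 and 584 CPM. *Cpe*, the carboxypeptidase that trims cut peptides, was at 22.4 and 171 CPM. *Pam*, which amidates peptide ends, was at 1332 CPM in the *Gcg* nuclei and 339 CPM in the others, and the granule proteins *Scg2* and *Scg3* had a UMI in 13 of 14 *Gcg* nuclei each and in 39 and 28 of 75.

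The *Gcg* nuclei were somewhat deeper, with a median of 11900 UMIs against 9326. At 2000 UMIs per nucleus the shares were 28.6% and 2.67% for *Lepr*, 14.3% and 2.67% for *Gad2*, 28.6% and 10.7% for *Pcsk1*, 14.3% and 56.0% for *Pcsk2* and 0% and 36.0% for *Reln*, so that each difference kept its direction. Of 76 listed genes, 34 had a higher share in the *Gcg* nuclei. By library, *Lepr* was found in 0 of 1, 3 of 3, 2 of 2 and 5 of 8 *Gcg* nuclei and *Reln* in 0, 0, 0 and 1 of them, so that the single *Gcg* nucleus of control replicate 1 was without *Lepr*, *Gad2* and *Pcsk1*. Of the receptors, *Glp1r* had a UMI in 0 of 14 and 1 of 75 nuclei and *Glp2r* in 0 of 14 and 3 of 75.

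**Figure D1:**
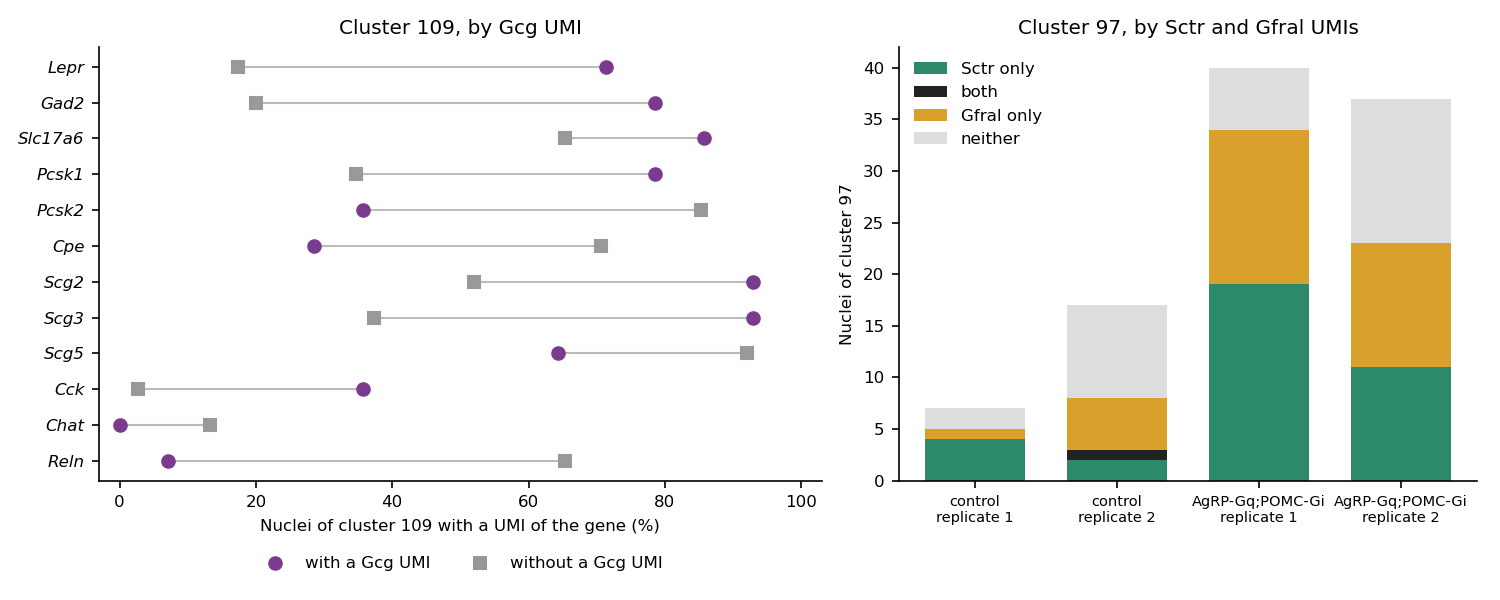
Left, share of nuclei of cluster 109 with a UMI of each gene (%), for the 14 nuclei with a *Gcg* UMI (circles) and the 75 without (squares), where *Lepr*, *Gad2* and *Pcsk1* lie higher and *Pcsk2* and *Reln* lower in the *Gcg* nuclei. Right, number of nuclei of cluster 97 in each library that had a UMI of *Sctr*, of *Gfral*, of both or of neither, where only 1 nucleus had both.

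*Glp1r* (chromosome 17, 30901817 to 30940791, plus strand) was mostly a neuronal transcript, with 294 of its 330 UMIs (89.1%) in neurons. A UMI was present in 239 neurons, or 1.91% (1.67% to 2.16%), against 0.149% of oligodendrocytes and 0.114% of astrocytes. Thinned to 800 UMIs the shares were 0.175%, 0.0476% and 0.0228%. The level in neurons was 2.38, 1.86, 2.47 and 2.58 CPM in the 4 libraries in the order given above, and was 0.596 ± 0.285 CPM in oligodendrocytes.

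Unlike *Gcg*, *Glp1r* was spread over many clusters, with 3 or more positive nuclei in 28. Its 5 leading clusters held 31.6% of its neuronal UMIs. The highest mean was in cluster 159, named Casr/Slc6a2, at 74.8 ± 37.3 CPM, with 1, 1, 8 and 15 UMIs among 3, 5, 18 and 24 nuclei and thus 120, 31.3, 62.4 and 86.0 CPM. These neurons express catecholamine genes, and *Dbh*, the enzyme that makes noradrenaline, had its highest mean of the 134 clusters there (88.1 ± 23.9 CPM against 1.37 ± 0.546 over all neurons). *Ramp1*, a partner protein of class B receptors, also had its highest mean there, at 78.0 ± 110 CPM, a value that rests on control replicate 1 with 239 CPM in 3 nuclei. Of the 16 *Glp1r* nuclei in cluster 159, 10 also had a UMI of *Casr*, the calcium-sensing receptor, which was found in 32 of its 50 nuclei.

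The next clusters were 144 (Nox4/Kcnmb2, GABAergic, 36.1 ± 19.2 CPM), 107 (glutamatergic, 20.2 ± 10.5 CPM), 87 (Col25a1/Nox4, GABAergic, 16.7 ± 5.71 CPM) and 124 (Zfp804b/Dlk1, GABAergic, 13.4 ± 4.97 CPM). Library values of each of these clusters overlapped those of its neighbor in the order. Cluster 107 held the most positive nuclei of the 5, with *Glp1r* in 21 of 90 (23.3%, and 1.14% at 2000 UMIs per nucleus), and had the highest mean of *Crhr1*, a receptor of corticotropin-releasing hormone, at 115 ± 6.98 CPM against 16.4 ± 1.80 over all neurons. In cluster 97, the Gfral/Sctr neurons, *Glp1r* was at 9.94 ± 8.03 CPM in 10 of 101 nuclei. Of these 10 nuclei, 6 had a UMI of *Gfral*, the receptor of the stress cytokine GDF15, and 1 had a UMI of *Sctr*.

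**Figure D2:**
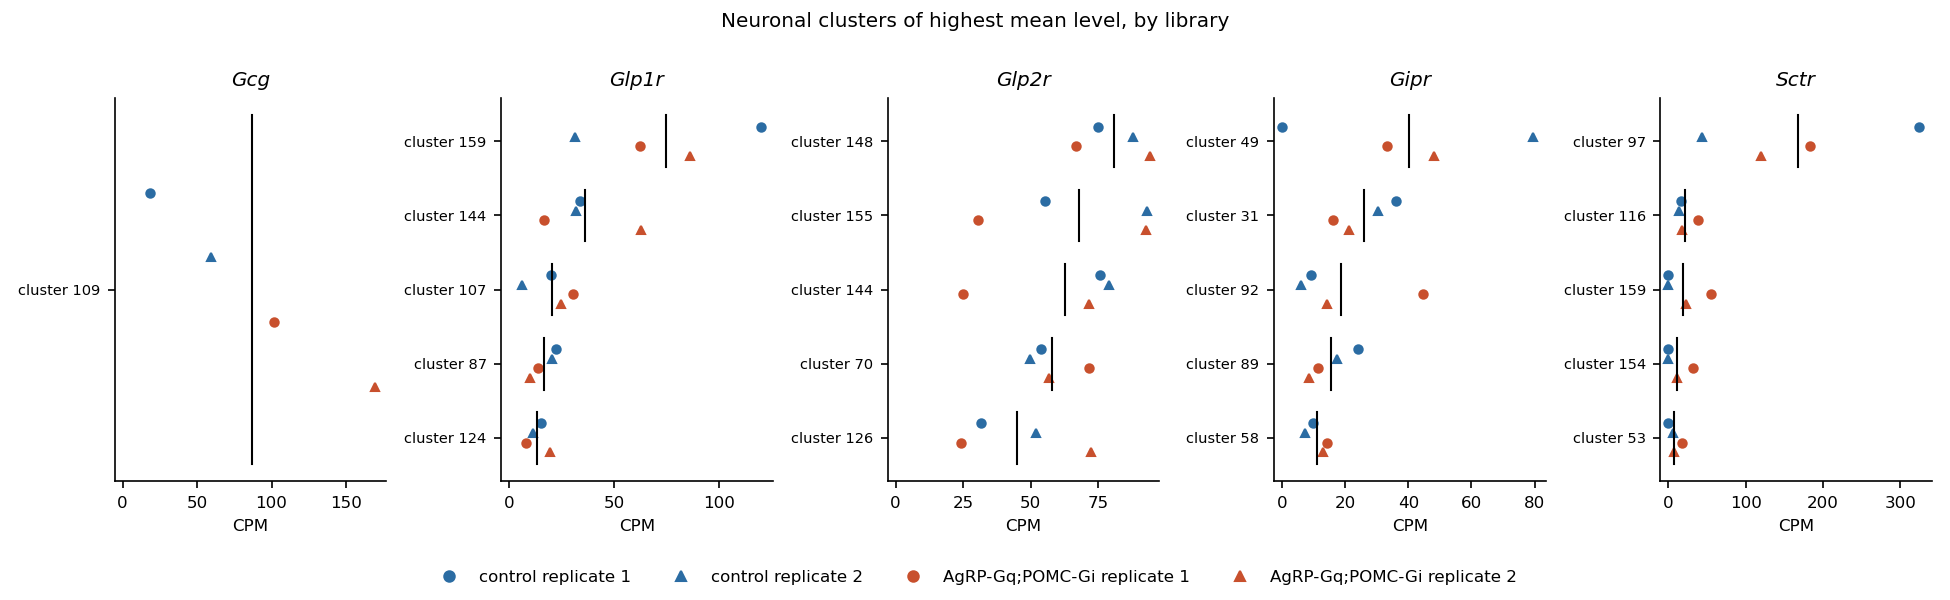
CPM of 5 members (x axes, linear) in up to 5 neuronal clusters (by number) of highest mean level among those with at least 3 nuclei with a UMI, by library, with the mean of the 4 libraries as a black line. *Gcg* has 1 such cluster, *Sctr* in cluster 97 lies above the other clusters shown within each library, and elsewhere the libraries of neighboring clusters overlap.

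*Glp2r* (chromosome 11, 67661502 to 67771153, minus strand) was the most widely counted member, with 2999 UMIs, of which 1292 (43.1%) were in neurons. The level in neurons was 10.5, 8.86, 10.5 and 11.2 CPM, and 8.15% of neurons had a UMI. Oligodendrocytes stood higher in all 4 libraries, at 25.6, 26.7, 43.7 and 26.1 CPM, with a UMI in 6.99% of nuclei. At 800 UMIs per nucleus the shares were 2.34% in oligodendrocytes, 1.16% in neurons and 0.137% in astrocytes, so that oligodendrocytes were above neurons by level and, at equal depth, by share. Fibroblasts (32.2 ± 5.38 CPM) and tanycyte-like cells (31.9 ± 8.39 CPM) overlapped with oligodendrocytes, and neurons were below these types in every library. The highest mean, 84.2 ± 104 CPM in the nuclei labelled Oligodendrocytes/OPC, rests on AgRP-Gq;POMC-Gi replicate 2, with 240 CPM against 24.8 to 43.2 CPM in the other 3. Choroid plexus cells had 46.3 and 41.0 CPM in the libraries with 436 and 329 such nuclei, and the other 2 libraries had only 2 and 6.

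In neurons *Glp2r* was low and broad. Its median over the 134 clusters was 7.77 CPM, 92 clusters had 3 or more positive nuclei, and the 5 leading clusters held 12.6% of the neuronal UMIs. These were 148 (Ccdc172/Ebf2, 81.1 ± 12.3 CPM), 155 (Kcnh8/Arhgap6, 67.9 ± 30.6 CPM), 144 (Nox4/Kcnmb2, 62.8 ± 25.4 CPM), 70 (Tfap2b/Cntnap5b, 58.1 ± 9.47 CPM) and 126 (Tfap2b/Slc39a8, 45.1 ± 21.7 CPM), with overlapping libraries throughout. Clusters 148 and 155 are glutamatergic and high in the transcription factor *Lmx1b*, at 135 ± 22.6 and 121 ± 10.4 CPM against 16.0 ± 1.66 over all neurons. Cluster 148 also had the highest mean of *Mme*, the gene of the peptide-degrading enzyme neprilysin, at 201 ± 69.2 CPM, and the second highest of *Pcsk1*, at 230 ± 98.4 CPM.

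The pattern of *Glp2r* followed that of *Gas7*, 1 of 2 genes on the opposite strand that overlap it. The annotation places *Gas7* on the plus strand from 67455437 to 67688990, so that 27489 bases of *Glp2r* (25.1% of its length, with its 3′ end) lie within it. Over the 134 neuronal clusters *Gas7* was the gene most like *Glp2r* among 17235, with Pearson r = 0.88 of log2(CPM + 1), ahead of *Ddx5* (0.62), *Negr1* (0.59), *Gm15577* (0.58) and *Camkv* (0.58). The 6 cell types with the highest *Glp2r* levels had *Gas7* at 137 to 234 CPM. *Gas7* was at 161 ± 27.1 CPM in oligodendrocytes, 234 ± 67.4 in fibroblasts, 147 ± 28.3 in tanycyte-like cells, 27.6 ± 3.40 in neurons and 12.0 ± 3.08 in astrocytes, where *Glp2r* was at 30.5, 32.2, 31.9, 10.3 and 1.86 CPM. Within neurons *Glp2r* had a UMI in 22.0% of nuclei with a *Gas7* UMI and in 5.17% of the others, at median depths of 8744 and 8698. Some types departed from this. F13a1 immune cells had 185 ± 81.9 CPM of *Gas7* and a single *Glp2r* UMI in 88 nuclei, and endothelial cells, with 27.9 ± 12.6 CPM of *Gas7* near the neuronal level, had 1.89 CPM of *Glp2r*. Ependymal cells had 24.8 ± 17.0 CPM of *Gas7* and 2.27 of *Glp2r*. Mural cells had more *Gas7* than neurons, at 49.95 ± 16.4 CPM, and less *Glp2r*, at 4.96. The other overlapping gene, *Rcvrn*, lies within *Glp2r* over 8008 bases and had 122 UMIs in all, with r = 0.70 to *Glp2r* over 14 cell types and 0.42 over neuronal clusters. *Glp2r* had a UMI in 18 of 48 neurons with *Rcvrn* (37.5%) and in 8.04% of the others, at median depths of 10270 and 8700.0 UMIs. Whether the counting kept the strands apart is not given in the sources used here, and how many of the *Glp2r* UMIs come from transcripts of these genes was not tested.

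*Glp1r* stood beside a similar neighbor. The gene most like it over neuronal clusters was *Gm10503* (r = 0.61, 153 UMIs), which on the minus strand from 30920338 to 30963220 overlaps 20454 bases of *Glp1r* with its 3′ end, followed by *Rarb* (0.40), *Atf5* (0.39), *Adamts5* (0.37) and *Map3k6* (0.37). *Glp1r* had a UMI in 35 of 132 neurons with *Gm10503* (26.5%) and in 1.64% of the others, at median depths of 10305 and 8687 UMIs. A second gene annotated across *Glp1r* on the opposite strand, *AC174471.1*, was not analysed here. *Gcg*, *Gipr* and *Sctr* overlap no annotated gene.

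**Figure D3:**
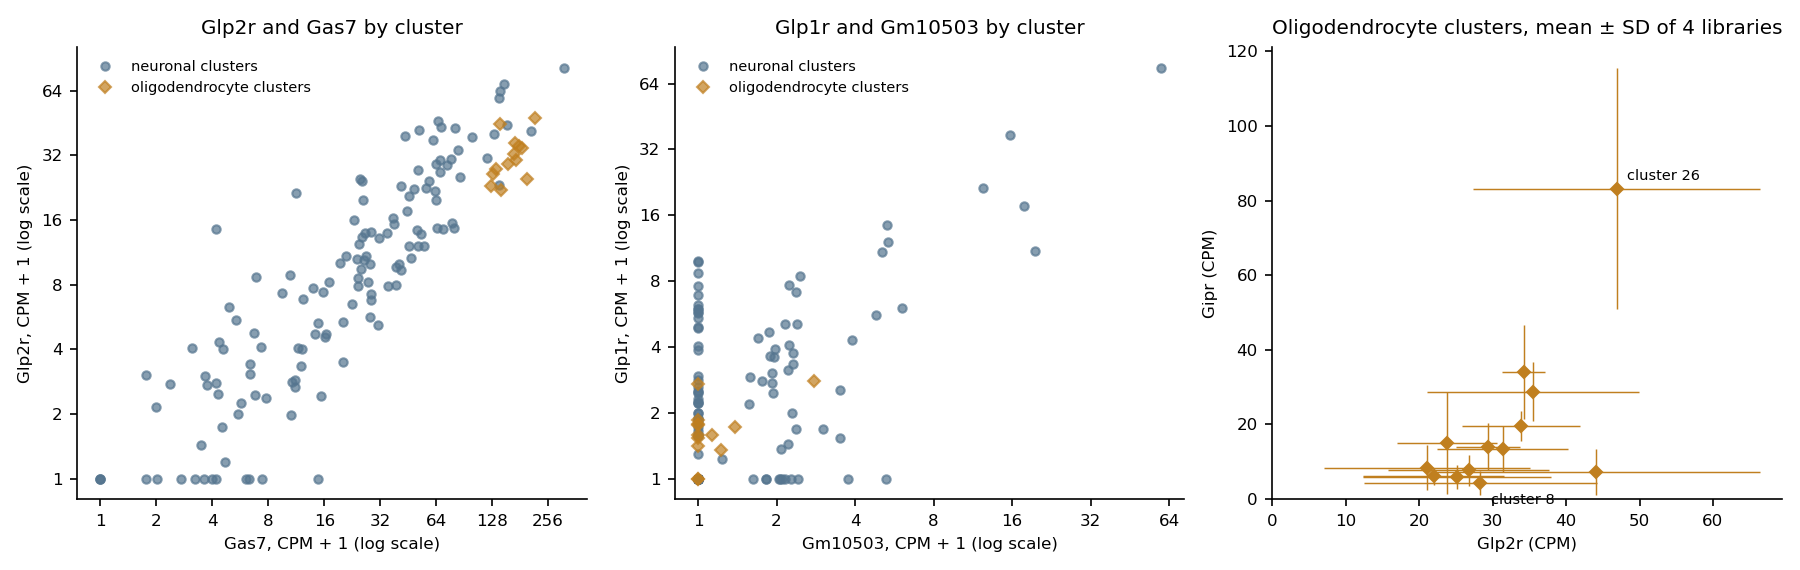
Left and middle, mean CPM + 1 of *Glp2r* against *Gas7* and of *Glp1r* against *Gm10503* on logarithmic axes, for 134 neuronal clusters (circles) and 13 oligodendrocyte clusters (diamonds), where *Glp2r* rises with *Gas7* over the whole range and most neuronal clusters with *Gm10503* near 0 have little *Glp1r*. Right, CPM of *Gipr* against *Glp2r* in the 13 oligodendrocyte clusters (linear axes, mean ± SD of 4 libraries), with cluster 26 highest for *Gipr*.

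*Gipr* (chromosome 7, 19156061 to 19166127, minus strand) was for the most part not neuronal, with 293 of 1163 UMIs (25.2%) in neurons. Mural cells, the pericytes and smooth muscle of vessels, had the highest level, at 29.9, 23.3, 67.6 and 26.2 CPM in the 4 libraries. Oligodendrocytes followed at 14.5, 18.2, 17.4 and 21.9 CPM, below mural cells without overlap, and then endothelial cells at 5.48 ± 4.20 and neurons at 2.33 ± 0.148 CPM. A *Gipr* UMI was seen in 4.71% of mural nuclei, 4.04% of oligodendrocytes and 1.83% of neurons (median depths of 1521, 2460 and 8704 UMIs), and in 0.0685% of astrocytes and 0.128% of oligodendrocyte precursors. At 800 UMIs the order was the same, with 1.86%, 1.25% and 0.167% in the first 3 types. Astrocytes thus gave the background, and the shares in mural cells and oligodendrocytes were above it.

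Oligodendrocytes were not uniform for *Gipr*. Of their 13 clusters, cluster 26 was at 70.9, 99.1, 44.5 and 118 CPM, with a UMI in 26.3% of 266 nuclei, and cluster 8 was at 4.39 CPM. Clusters 6 and 2 lay between them at 34.1 ± 12.7 and 28.7 ± 7.92 CPM. The same clusters spanned a smaller range for *Glp2r*, from 21.0 to 46.9 CPM, and over the 13 clusters the 2 receptors had a Pearson r of 0.62 on the log2 scale, a description of clusters that share libraries. In single nuclei, 81 oligodendrocytes had both receptors out of 1176 with *Glp2r* and 679 with *Gipr*.

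Among neurons *Gipr* was gathered in fewer clusters than *Glp2r*, and its 5 leading clusters held 50.2% of its neuronal UMIs. Cluster 49 (Ccbe1/Tspan18) had the highest mean, 40.2 ± 33.0 CPM, from 0, 10, 14 and 18 UMIs among 9, 18, 72 and 57 nuclei. Its *Slc32a1* was at 40.4 ± 16.5 CPM and its *Slc17a6* lower, at 12.3 ± 4.16 CPM. Control replicate 1 with 9 nuclei had none. Cluster 31 (Cdh3/Nkain3, GABAergic) had 25.9 ± 8.99 CPM and a UMI in 43 of 204 nuclei, with all 4 libraries between 16.2 and 36.2 CPM, and it was followed by clusters 92 (18.5 ± 17.7 CPM), 89 (15.4 ± 6.81 CPM) and 58 (11.1 ± 3.13 CPM), whose libraries overlapped. Cluster 49 had the highest mean of *Arrb1*, an arrestin that takes receptors off the surface, at 121 ± 46.0 CPM against 68.6 ± 3.50 over all neurons. The genes most like *Gipr* over clusters were only loosely alike, *Ddr2* (r = 0.37), *Asic4* (0.36), *Nxpe2* (0.36), *1300017J02Rik* (0.35) and *Kcnrg* (0.34), and for *Gcg* no gene passed 0.31, the value of *Gm15283*, at this pseudocount.

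*Gcgr*, the glucagon receptor itself (chromosome 11, 120530699 to 120538986, plus strand), had 5 UMIs in all, 4 in neurons of 4 different clusters and 1 in a fibroblast. Its share of neurons was 0.0319% (0.00869% to 0.0817%). Oligodendrocytes had 0 of 16816 nuclei, which allows a share of up to 0.0178%. This depth cannot show any difference between clusters for *Gcgr*. Intervals and limits given here cover counting error only.

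*Sctr* (chromosome 1, 120006894 to 120063536, plus strand) was, among whole cell types, highest at the ventricle. Ependymal cells, which bear the motile cilia that move cerebrospinal fluid, were at 85.9, 84.6, 107 and 69.5 CPM, with a UMI in 19.4% of 314 nuclei. Tanycyte-like cells were at 92.2, 37.5, 53.4 and 52.1 CPM, with a UMI in 17.3%, and their libraries overlapped those of ependymal cells. Astrocytes were lower without overlap at 6.78 ± 1.52 CPM, and 3 of their 11 clusters stood above the rest, 48 (55.4 ± 17.0 CPM), 54 (30.6 ± 28.8 CPM) and 20 (14.8 ± 3.76 CPM). Oligodendrocytes, with a UMI in 0.0535% of nuclei, gave the background.

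**Figure D4:**
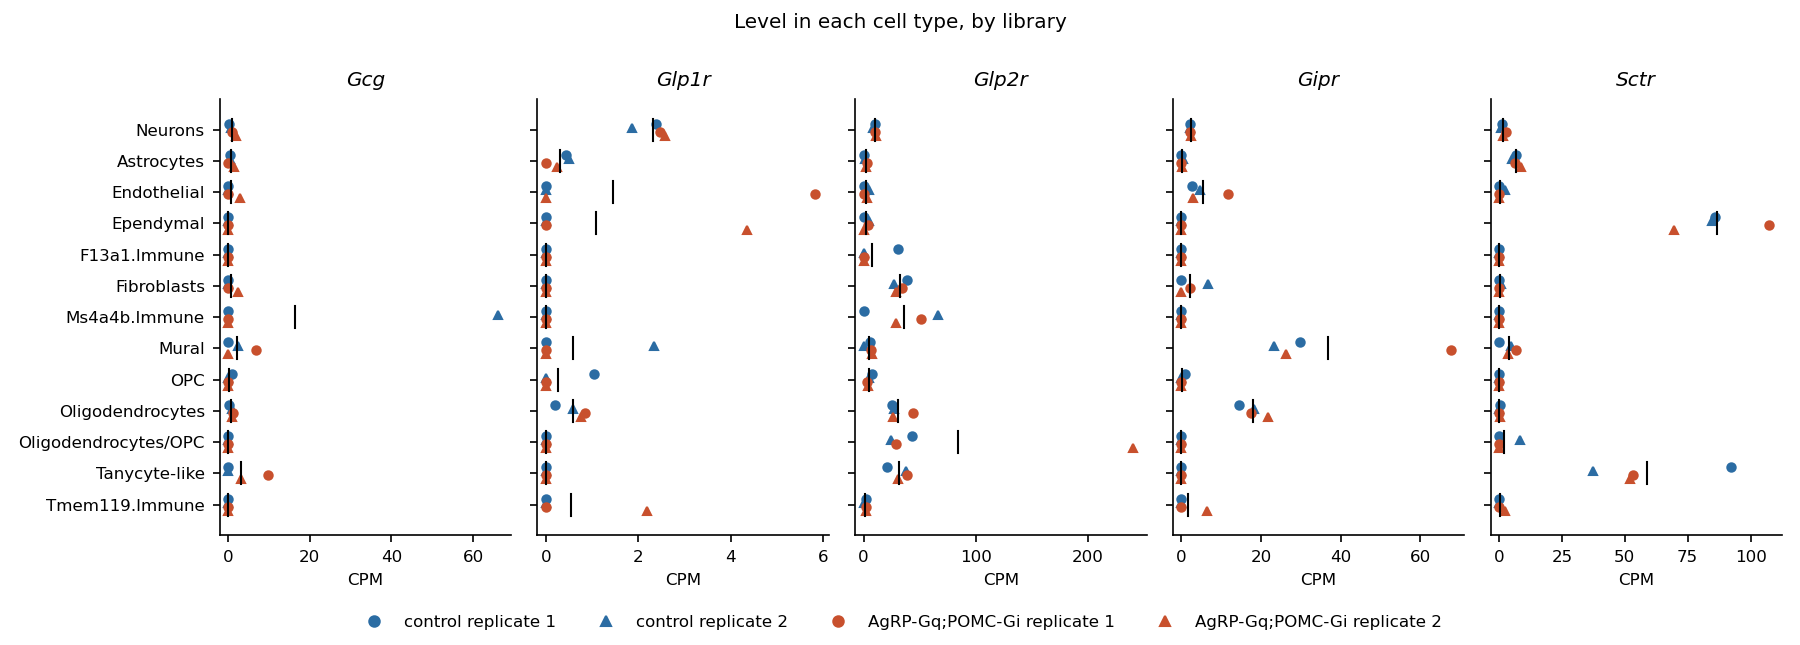
CPM of 5 members (x axes, linear) in the 13 cell types with at least 5 nuclei in each library, by library, with the mean of the 4 libraries as a black line. *Sctr* is highest in ependymal and tanycyte-like cells and *Gipr* in mural cells and oligodendrocytes, in every library, while the *Gcg* mean of Ms4a4b immune cells comes from 1 library.

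In neurons *Sctr* had 220 UMIs in 93 nuclei (0.742%), and cluster 97, named Gfral/Sctr, held 55.5% of these UMIs. Its libraries had 22, 6, 60 and 34 UMIs in 4 of 7, 3 of 17, 19 of 40 and 11 of 37 nuclei, or 325, 43.9, 183 and 120 CPM (168 ± 119). The lowest of these values was above all 4 libraries of the next cluster, 116 (Prph/Slc5a7, 21.7 ± 11.6 CPM), whose highest was 38.9 CPM. Clusters 159 (19.4 ± 25.9 CPM), 154 (10.8 ± 15.2 CPM) and 53 (7.68 ± 7.50 CPM) followed, with overlap. The highest library of cluster 159, at 54.6 CPM, was above the lowest of cluster 97, which rests on 6 UMIs. In clusters 159 and 154 the control libraries, of 3 to 5 nuclei each, had no *Sctr* UMI. The genes most like *Sctr* over clusters were *Pirt* (r = 0.57), *B020031H02Rik* (0.56), the peptide gene *Gal* (0.54), *Gm45680* (0.53) and *Gch1* (0.52), which makes the cofactor of catecholamine synthesis. With a pseudocount of 10 the most alike gene was *Gfral* (0.74), whose UMIs in the same cluster are described next.

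Although the authors named cluster 97 for both genes, *Sctr* and *Gfral* were hardly ever seen in the same nucleus of this cluster. Of its 101 nuclei, 37 had a UMI of *Sctr* and 34 a UMI of *Gfral*, with 1 nucleus counted in both, and 31 had neither. *Sctr* was thus present in 2.94% of the *Gfral* nuclei and 53.7% of the others, at median depths of 7005 and 6833 UMIs. In both AgRP-Gq;POMC-Gi libraries 0% of 15 and of 12 *Gfral* nuclei had *Sctr*, against 76.0% and 44.0% of the others. Control replicate 1 held only 1 *Gfral* nucleus. In control replicate 2 the shares were close, 16.7% of 6 *Gfral* nuclei and 18.2% of the others, so that the separation rests on the AgRP-Gq;POMC-Gi libraries. *Casr*, named here after its values were seen, had a UMI in 15 of the 34 *Gfral* nuclei and 4 of the 37 *Sctr* nuclei, and *Glp1r* in 6 and 1. *Ddc*, the decarboxylase of monoamine synthesis, was found in both kinds, in 29 of 34 and 32 of 37. Over all neurons 6 nuclei had both *Sctr* and *Gfral*, of 93 with *Sctr* and 243 with *Gfral*.

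Over all neurons the differences between the groups were largest for *Gcg* and *Sctr* among the 5 members tested. For *Gcg* the neuronal level was 0.298 and 0.620 CPM in controls, against 1.10 and 2.07 CPM in AgRP-Gq;POMC-Gi, without overlap. For *Sctr* it was 1.15 and 0.911 CPM in controls and 2.92 and 1.70 CPM in AgRP-Gq;POMC-Gi, again without overlap. How many of all genes separate the groups by CPM was not computed, over all neurons or in clusters. On the log2 scale *Gcg* was 1.82 ± 0.44 (SE) and *Sctr* 1.23 ± 0.35 higher in AgRP-Gq;POMC-Gi neurons by edgeR's quasi-likelihood test, with an adjusted p = 0.847 for each. Before adjustment edgeR gave an unadjusted p = 0.00333 for *Gcg* and an unadjusted p = 0.00805 for *Sctr*.

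By this edgeR test over all neurons 0 of the 5 members tested passed an adjusted p of 0.05, beside 1 gene of 21200 (0.00472%), and 2 members had an unadjusted p under 0.05, beside 5.51% of all genes. DESeq2 also called 0 members, beside 0.0519% of all genes, with 2 at an unadjusted p under 0.05, beside 2.78% of all genes. The other differences were 0.31 ± 0.22 for *Glp1r*, whose CPM also did not overlap between the groups, 0.22 ± 0.13 for *Glp2r* and 0.14 ± 0.21 for *Gipr*. With 1 library left out the edgeR difference ranged from 1.36 to 2.44 for *Gcg* and from 0.73 to 1.61 for *Sctr*.

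The share of neurons with a UMI went the same way. It was 0.172% ± 0.0147 in controls and 0.559% ± 0.0642 in AgRP-Gq;POMC-Gi (SD, n = 2 each) for *Gcg*, and 0.460% ± 0.0211 and 0.939% ± 0.279 for *Sctr*. An exact two-sided permutation test over libraries gave p = 0.333 for each, the smallest that 2 against 2 can give. Both AgRP-Gq;POMC-Gi libraries were above both controls for these 2 of the 6 members, as for 7.16% of all genes. For *Gcgr*, with 1, 2, 0 and 1 positive neurons, both were below, as for 36.3% of all genes. Thinned to 2000 UMIs, *Gcg* had 0.0966% ± 0.0205 and 0.194% ± 0.0795 and *Sctr* 0.138% ± 0.0376 and 0.442% ± 0.036, still without overlap, and *Glp1r* and *Gipr* no longer overlapped either. How many of all genes separate the groups at this depth was not computed, so that these separations have no background to be read against.

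In cluster 109 itself *Gcg* was at 18.1 and 59.5 CPM in controls, against 102 and 169 CPM in AgRP-Gq;POMC-Gi. The difference was 1.96 ± 0.41 on the log2 scale with unadjusted p = 7.3e-05 and adjusted p = 0.191 by edgeR over all pairs of gene and cluster, and DESeq2 gave 1.93 with an unadjusted p = 0.0038. Leaving out control replicate 2 or AgRP-Gq;POMC-Gi replicate 1 brought the adjusted p of edgeR to 0.00408 and 0.000409, with differences of 3.00 and 2.18, and leaving out control replicate 1 or AgRP-Gq;POMC-Gi replicate 2 gave 1.33 and 1.58 with an adjusted p = 0.608 and 0.32. The *Gcg* nuclei numbered 1 and 3 in the controls and 2 and 8 in AgRP-Gq;POMC-Gi, so that the counts overlap. As shares of the cluster these were 4.35% and 12.5% against 14.3% and 28.6%, where the nearest values are 3 of 24 and 2 of 14 nuclei. How many of all genes separate the groups by share in this cluster was not computed. The UMIs per *Gcg* nucleus were 5.0 and 5.0 against 10.5 and 7.38. The level of AgRP-Gq;POMC-Gi replicate 1 rests on a single nucleus, which gave 18 of its 21 UMIs.

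In the remaining neurons *Gcg* was also higher in both AgRP-Gq;POMC-Gi libraries, at levels close to background that were not tested between the groups. How many of all genes separate the groups in these neurons was not computed. With cluster 109 left out, the level was 0.113 and 0.0736 CPM in controls and 0.509 and 0.401 CPM in AgRP-Gq;POMC-Gi, from 3, 2, 18 and 14 UMIs, most of them 1 to a nucleus. Nuclei that are not neurons had 0.220, 0.931, 0.971 and 1.01 CPM in the 4 libraries, so that there control replicate 1 stood apart from the other 3. Whether free RNA has a part in the *Gcg* difference was not tested.

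Cluster 97, where *Sctr* led, was 0.283%, 0.621%, 1.08% and 1.02% of the neurons in the 4 libraries. Within the cluster the difference was 0.09 ± 0.44 on the log2 scale with an adjusted p = 1.0 by edgeR, while the plain means of CPM went the other way, 184 ± 199 in controls and 152 ± 44.6 in AgRP-Gq;POMC-Gi. It was 1.87 without control replicate 1 and −1.08 without control replicate 2. Outside cluster 97 the level was 0.336 and 0.696 CPM in controls and 1.25 and 0.743 CPM in AgRP-Gq;POMC-Gi. The part of cluster size in the neuronal difference was not tested. Cluster 159, where *Glp1r* led, had 3 and 5 nuclei in controls but 18 and 24 in AgRP-Gq;POMC-Gi, and its group levels were not tested, since only clusters with 5 or more nuclei of every library were.

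**Figure D5:**
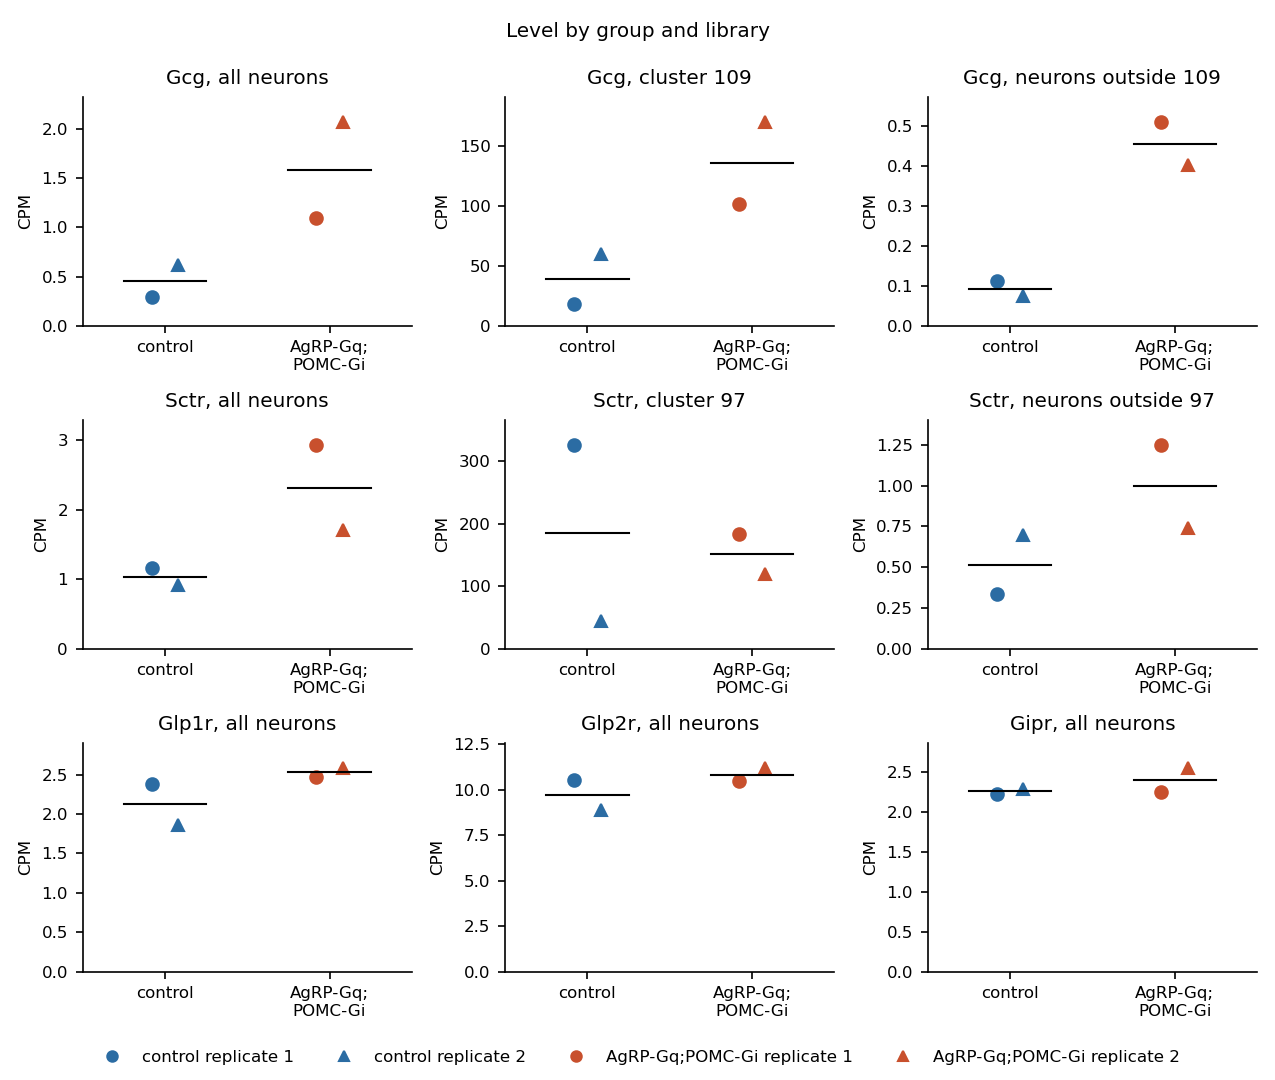
CPM (linear axes from 0) by group and library, with the mean of each group as a black line. *Gcg* and *Sctr* over all neurons, *Gcg* in cluster 109 and outside it, and *Sctr* outside cluster 97 are higher in both AgRP-Gq;POMC-Gi libraries than in both controls, whereas *Sctr* within cluster 97 and the other members over all neurons show overlap or differences near the spread of libraries.

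In the 120 neuronal clusters that held 5 or more nuclei of every library, 23 pairs of member and cluster had enough UMIs to be tested, 17 of them for *Glp2r*. By edgeR 0 of these 23 passed the adjusted threshold, beside 130 of 822754 pairs over all genes (0.0158%), and 1, *Gcg* in cluster 109, had an unadjusted p under 0.05, beside 4.88% of all pairs. DESeq2 likewise called 0 of the 23, beside 0.00146% of all pairs, with 1 at an unadjusted p under 0.05, beside 0.596% of all pairs. The 17 differences of *Glp2r* lay between −1.27 and 0.49, with 5 above 0 and 12 below. *Glp1r* in cluster 107 was 1.20 ± 0.63 higher and *Gipr* in cluster 31 was at −0.75 ± 0.40, neither past the threshold.

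In the 12 other cell types with enough nuclei, 0 of 12 pairs passed by edgeR, beside 0.0602% of 106245 pairs, and 1 had an unadjusted p under 0.05, beside 5.73%. DESeq2 called 0 of the 12, beside 0.101% of all pairs, with 0 at an unadjusted p under 0.05, beside 1.77% of all pairs. The 1 pair by edgeR was *Glp2r* in astrocytes, with 0.866 and 1.00 CPM in controls and 3.29 and 2.28 CPM in AgRP-Gq;POMC-Gi. Its difference was 1.58 ± 0.57 with an adjusted p = 0.716 by edgeR. *Gas7* in the same astrocytes was at 9.74, 9.52, 16.1 and 12.4 CPM. In oligodendrocytes *Glp2r* was 0.49 ± 0.25 and *Gipr* 0.32 ± 0.16 higher. Without AgRP-Gq;POMC-Gi replicate 2 the *Glp2r* difference was 0.90 with an adjusted p = 0.00026 by edgeR, and without AgRP-Gq;POMC-Gi replicate 1 it was −0.034, so that the value rests on replicate 1, whose *Gas7* level in oligodendrocytes was also the highest, at 193 CPM against 133, 144 and 173. *Sctr* in ependymal cells differed by 0.11 ± 0.39 and *Gipr* in mural cells by 0.66 ± 0.52.

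Of the ligands that these receptors bind beside the products of *Gcg*, *Gip* was at 0.107 ± 0.0788 CPM and *Sct* at 0.189 ± 0.0471 CPM in neurons, from 14 and 24 UMIs, so that both were hardly detected. *Dpp4*, the peptidase that inactivates the glucagon-like peptides and GIP, was at 6.04 ± 0.346 CPM in neurons, 100 ± 44.1 CPM in choroid plexus and 77.3 ± 26.7 CPM in fibroblasts, with the highest mean in the Oligodendrocytes/OPC nuclei at 294 ± 273 CPM.

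The genes around these receptors were compared between the groups in the same fits. Of 69 genes in lists of peptide processing, family ligands, other class B receptors, cAMP signaling, peptide degradation with receptor partners and vagal complex identity, 67 could be tested over all neurons and 0 passed by edgeR or by DESeq2. By edgeR 6 were higher and 1 lower at an unadjusted p under 0.05 (10.4%, beside 5.51% of all genes). DESeq2 gave 6 in all, beside 2.78% of all genes. The median difference by edgeR was 0.047 against −0.00092 over all genes. Of 66 genes tested, edgeR called 4 higher without AgRP-Gq;POMC-Gi replicate 1, and 5 higher and 4 lower without AgRP-Gq;POMC-Gi replicate 2, beside 0.838% and 12.5% of all genes in the same fits. Those 7 by edgeR were *Crhr2* (1.48 ± 0.42), *Ramp3* (0.97 ± 0.29), *Gfral* (0.71 ± 0.22), *Cartpt* (0.79 ± 0.24), *Dbh* (0.99 ± 0.32) and *Pcsk2* (0.19 ± 0.08), higher, and *Pth2r* (−0.81 ± 0.25), lower. In the 120 clusters 0 of 3852 pairs of list gene and cluster passed by edgeR or DESeq2, with 227 at an unadjusted p under 0.05 by edgeR (119 higher and 108 lower, 5.89% beside 4.88% of all pairs) and 25 by DESeq2, which gave 0.596% of all pairs. With the replicate block edgeR called 1 of 3852 higher, beside 0.0555% of all pairs. With no filter on genes it called 2 of 6624 lower, beside 0.0467% of all pairs. In cluster 109 *Pcsk1* was 1.62 ± 0.37 higher (adjusted p = 0.29 by edgeR) and *Pam* 0.98 ± 0.27 (adjusted p = 0.59). *Sst*, the gene of somatostatin and named here after its values were seen, had 18, 2, 0 and 0 UMIs in cluster 109 in the 4 libraries, with a fitted difference of −6.32 ± 1.54 that is no bound (adjusted p = 0.428 by edgeR). *Sst* reached the minimum of 20 UMIs through the controls alone, mostly control replicate 1. The size and direction of its difference were thus set by that filter and are no result. *Scg3*, which like *Pcsk1* and *Pam* was high in the *Gcg* nuclei, was at −0.13 ± 0.37.

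Among the other cell types 1 of 378 such pairs passed by edgeR, beside 0.0602% of all pairs, with 26 higher and 18 lower at an unadjusted p under 0.05 (11.6%, beside 5.73%). DESeq2 called 0, with 15 at an unadjusted p under 0.05, beside 1.77% of all pairs. With the replicate block edgeR called 2 of 378 higher, beside 0.42% of all pairs. With no filter on genes it called 5 of 707 higher and 1 lower, beside 0.371% of all pairs. The 1 pair of the main edgeR fit was *Calcrl* in astrocytes, the receptor of calcitonin gene-related peptide and adrenomedullin. It was 1.28 ± 0.20 higher in AgRP-Gq;POMC-Gi with an adjusted p = 0.047 by edgeR. The adjusted p was 0.0577 by DESeq2, 0.102 by edgeR without TMM factors and 0.077 by edgeR with a filter of 5% of nuclei, and it ranged from 4.03e-05 to 0.0729 by edgeR with 1 library left out, the highest without control replicate 1.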

How the data were processed

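Nuclei of the hindbrain were sorted and sequenced with the 10x 3′ chemistry, and the authors aligned reads with Cell Ranger 7.0.0 to the mouse genome (GRCm38) and annotated nuclei in Seurat 4.3.0. The deposited matrices hold raw UMI counts per gene and nucleus, and the deposited metadata give cluster, cell type and quality labels, with other columns such as the percent of mitochondrial counts. The authors' condition labels and scores of immediate early genes were not used. Whether introns were counted and strands kept apart is not given in the sources used here.

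The study's methods name a doublet detection step before annotation, and no doublet caller was run here. For nuclei that passed the authors' quality filter, counts of each cluster or cell type were added up by library. Groups were compared with edgeR 4.0.16 (quasi-likelihood test, TMM factors) on genes with at least 20 UMIs over 4 libraries in clusters or types that held 5 or more nuclei of every library. P-values were adjusted by Benjamini-Hochberg over all pairs of gene and cluster or type, at a threshold of 0.05, and DESeq2 1.42.0 was an alternative. Data were simulated for all neurons, clusters 109, 97 and 159, oligodendrocytes and ependymal cells, with changes in random genes at a common dispersion. The edgeR fit recovered 76.8% of 2-fold changes over all neurons and 66.8% in oligodendrocytes. It recovered 83.0% of 4-fold and 4.35% of 2-fold changes in cluster 109. Of 4-fold changes it recovered 55.0% in cluster 97, 42.1% in cluster 159 and 63.6% in ependymal cells. P-values there were adjusted within each cluster or type alone, so that recovery under the adjustment over all pairs was not measured. Recovery was not split by count either. It was thus not measured for genes as rare as *Gcg* and *Sctr*, with 137 and 220 UMIs in neurons. Shares were also computed after thinning nuclei to 2000 UMIs (800 for cell types), with shallower nuclei left out. Leading clusters were those with at least 3 positive nuclei and the highest mean CPM, and likeness was Pearson's r of log2(CPM + 1) over 134 clusters. Glutamatergic and GABAergic refer to *Slc17a6* and *Slc32a1* levels. The name of 1 cluster and the values of 1 listed gene are not reported here. Gene positions and overlaps are from GENCODE M21. Python 3.11.15 and R 4.3.3 were used. The members and gene lists were chosen with earlier results of these data known.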

Additional observations from a re-analysis of the deposited data

How the results depend on the processing

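Counts of all genes called depended on the fit. Over all neurons edgeR called 1 gene, and DESeq2 11, the fit with the replicate number as a block 216 and a filter of 5% of nuclei 0, with 3 to 2559 when 1 library was left out. Over neuronal clusters the count of 130 pairs became 12 with DESeq2, 457 with the block, 389 with the 5% filter, 947 with no filter, 242 with adjustment within each cluster, and 609 to 1181 when 1 library was left out. Over other cell types the count of 64 became 107 with DESeq2, 446 with the block, 812 with no filter, and 159 to 1242 with 1 library left out. A group left with 1 library was assumed to vary like the other group.

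Members called numbered 0 in each comparison of the main edgeR fit. With the block they became 2 over neurons, beside 1.02% of all genes, and 1 over clusters, beside 0.0555% of all pairs. With no filter they became 1 over clusters, beside 0.0467% of all pairs. With the block these were *Gcg* (1.83, adjusted p = 0.00475 by edgeR) and *Sctr* (1.20, adjusted p = 0.0277) over neurons and *Gcg* in cluster 109 (1.91, adjusted p = 0.00388), and with no filter *Gcg* in cluster 109 (1.96, adjusted p = 0.00331). The replicate numbers pair the libraries by number only, since deviations of same-numbered libraries had a correlation of 0.0268 over 21200 genes. Some fits with 1 library left out, in which a group has a single library, also called a member in each comparison. They are not counted here.

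The difference of *Sctr* in cluster 97 reversed with DESeq2 (−0.16), and with 1 library left out it ranged from −1.08 to 1.87, below 0 without control replicate 2 or AgRP-Gq;POMC-Gi replicate 1 (−0.41). Without AgRP-Gq;POMC-Gi replicate 1 the differences of *Glp2r* in oligodendrocytes, *Gipr* in mural cells and *Sctr* in ependymal cells also reversed, with ranges of −0.034 to 0.90, −0.051 to 1.40 and −0.28 to 0.39. With 1 library left out, group differences in the share of neurons ranged from 0.342 to 0.433 percentage points for *Gcg*, 0.282 to 0.676 for *Sctr*, −0.0594 to −0.0267 for *Gcgr*, −0.0872 to 0.406 for *Glp1r*, −0.346 to 1.08 for *Glp2r* and −0.126 to 0.149 for *Gipr*. The negative values of the last 3 came without control replicate 2 (−0.101 for *Gipr*), and for *Gipr* also without AgRP-Gq;POMC-Gi replicate 2. The level of *Glp2r* in cluster 148 was 65.9 CPM as a mean over nuclei, outside 1 SD of the reported value. Causes of these changes were not tested. The other 54 of 55 alternatives for levels moved them by less than 1 SD. Most of these left out 1 of 4 libraries, which cannot move a mean by 1 SD, so that the count says nothing on stability. With 1 library left out, the mean of *Gipr* in cluster 49 ranged from 27.1 to 53.6 CPM. *Gas7* and *Gm10503* were the genes most like *Glp2r* and *Glp1r* under each setting tried. Most other like genes changed with the pseudocount, the limit on cluster size or Spearman's rho. Of each 5, 0 to 2 were shared by rho, 1 to 3 with a pseudocount of 10 and 1 to 4 over clusters of at least 50 nuclei. For *Gcg* the most alike gene was *Asb4* (0.45) with a pseudocount of 10 and *Gm27042* (0.38) by rho.

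Clusters 97 and 159 have 3 to 17 nuclei in a control library, and the count of *Gcg* in cluster 109 rests on 14 nuclei, which limits what a group comparison in them can show.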
